A study of Homo sapiens with 20 samples.

Results

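Total RNA of 10 human colorectal adenocarcinoma cell lines was sequenced, 1 cell library per line, and the 10 libraries were split into 2 groups of 5 by how strongly they expressed 4 genes of colon epithelium. The score of a library was the mean of log2(CPM + 1), where CPM is counts scaled to a common library size by the column total, over CDH17, LGALS4, CEACAM5 and CEACAM6. LS513, SNU-C1, LS1034, LoVo and HT-29 had the 5 highest scores and are called high-score; WiDr, COLO-201, SW480, LS123 and HCT 116 had the 5 lowest and are called low-score. These are 10 of the 20 libraries of the series. The other 10 hold RNA of extracellular vesicles, the membrane-bound particles that the same lines shed, and the study asked whether vesicle RNA mirrors the RNA of the parent cells. All lines were untreated and are labelled wild type, with no allele given. LS513 and LS1034 are labelled as coming from the cecum, the other 8 from the colon. Both cecum lines fell in the high-score group, so the groups also differ in site of origin. Counts without the cecum lines are given for many of the gene lists but not for all. Lines grew in RPMI-1640 or DMEM with fetal bovine serum; which line had which medium is not given. With 1 library per line the replicate is the cell line, and how far cultures of 1 line differ is not known here.

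The colon lining is renewed from dividing stem cells at the crypt base. Their progeny stop dividing as they move up the crypt and become absorptive cells with a brush border of microvilli, or mucus-filled goblet cells; the factors CDX1, CDX2, HNF4A and HNF4G switch on many of the genes these mature cells use. CDH17 (an intestinal cadherin), LGALS4 (galectin-4) and the glycoproteins CEACAM5 and CEACAM6 are products of the mature cells that colorectal cancer lines keep to very different degrees.

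The score fell from 10.27 in LS513, 10.17 in SNU-C1 and 9.51 in LS1034 to 8.0 in LoVo and 6.01 in HT-29, and then from 5.35 in WiDr to 1.77 in COLO-201, 1.21 in SW480, 0.23 in LS123 and 0.10 in HCT 116. HT-29, just inside the high-score group, and WiDr, just outside, were 0.66 apart, while the largest step, 3.58, lay inside the low-score group between WiDr and COLO-201. HT-29 carried its score on LGALS4 (1039 CPM) and CEACAM6 (142 CPM) with CDH17 at 5.08 CPM, and WiDr had the same shape, with 1036 CPM of LGALS4 and 61.1 CPM of CEACAM6. These values chose the groups and are given as a description.

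**Figure D1:**
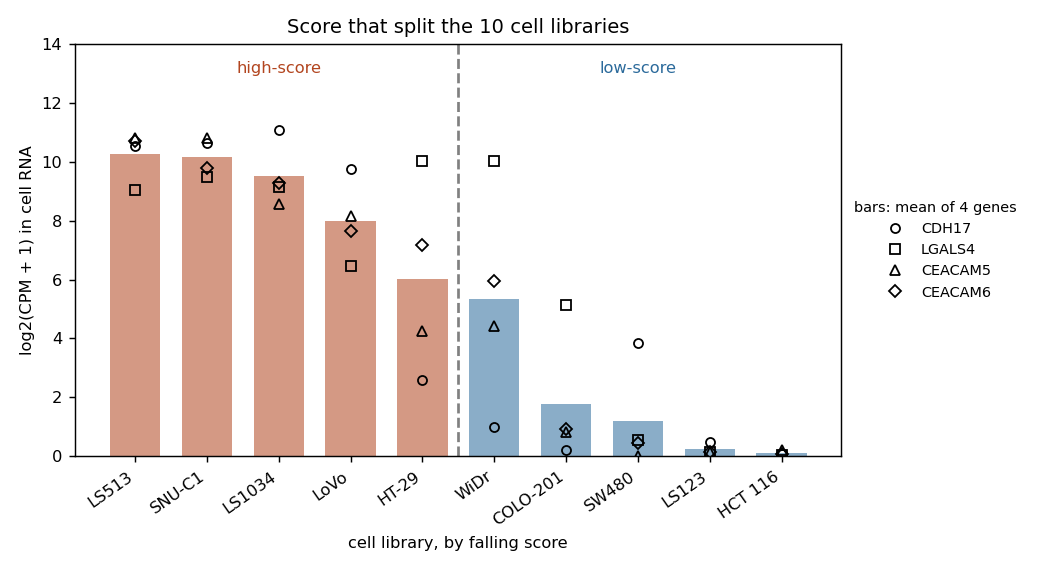
Score of each cell library (bars, mean log2(CPM + 1) of 4 genes) and the 4 genes behind it (open symbols), with libraries ordered by falling score and the dashed line between the groups. HT-29 (6.01) and WiDr (5.35) stand on either side of the line, and the largest step lies between WiDr and COLO-201 (1.77).

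The line between the groups ran through a pair of near-identical libraries. Among the genes with at least 10 CPM in 1 of the 2 libraries, 0.767% (72 of 9393) differed by over 4-fold between HT-29 and WiDr, and 0.423% (41 of 9686) between LS123 and HCT 116. The next closest pair, LS513 and LS1034, differed in 7.09%, and the most distant, LS513 and LS123, in 18.5%. WiDr is known as a derivative of HT-29, whereas LS123 and HCT 116 carry the labels of separate lines. By this share, LS123 and HCT 116 were closer to each other than HT-29 and its derivative. A chi-square statistic of the counts per degree of freedom ranked these pairs the other way. It was 249 for LS123 and HCT 116 and 103 for HT-29 and WiDr, with LS513 and LS1034 next at 337. How far 2 cultures of 1 line differ is not known here, so whether LS123 and HCT 116 are separate lines, as labelled, was not tested; if they are not, the low-score group holds 4 lines and its n of 5 is too large. All 10 libraries were kept as labelled, and results are also given with LS123 and HCT 116 summed or left out. Depth was much alike in the groups: total counts were 31.6 ± 4.94 M in the high-score and 30.6 ± 4.27 M in the low-score libraries (SD, n = 5 each), and the mitochondrially encoded share was 0.910% against 0.820%. For these, the number of genes detected and the share of the 50 most abundant genes, the two-sided exact permutation test gave adjusted p = 0.929. A count of 0 allows up to 3 counts in a library, 0.0802 to 0.121 CPM, for counting error only. Of the leukocyte markers 3 of 12, and of the fibroblast and endothelial markers 4 of 13, passed the filter on low counts; Apart from LYZ, the highest level of a leukocyte marker in any library was 5.95 CPM (CD14 in HT-29), with PTPRC at most 1.12 CPM, and the highest of a fibroblast or endothelial marker 13.4 CPM (LUM in SW480), followed by 9.55 CPM of COL1A1 in LS123, with COL1A2 at most 0.497 CPM. The summed fibroblast and endothelial markers were 1.3 to 11.4 CPM in the high-score and 1.87 to 25.2 CPM in the low-score libraries. LYZ, which secretory epithelium also makes, passed 1 CPM in 7 libraries and stood at 2728 CPM in HT-29, 2688 in WiDr, 856 in LS513 and 704 in COLO-201; the summed leukocyte markers, LYZ included, were 1.95 to 2739 against 0.636 to 2704 CPM. The part of these markers in the results was not tested.

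Among the genes that went with the score at an unadjusted p under 0.05, intestinal transcription factors, brush-border and surface genes stood mostly higher in the high-score libraries, and DNA replication, mitosis and mesenchymal genes mostly lower. No single gene passed the threshold between the 5 high-score and the 5 low-score libraries: of 12657 genes tested besides the 4 scoring genes, 0 (0.0% in each direction) had a Benjamini-Hochberg adjusted p under 0.05 in edgeR's quasi-likelihood test, and the smallest adjusted p was 0.228. At an unadjusted p under 0.05, 744 genes were higher (5.88%) and 805 lower (6.36%) in the high-score libraries. These were 493 (3.82%) and 535 (4.1%) without LS123, and 405 (3.02%) and 468 (3.49%) without the cecum lines. They were 1025 (7.88%) and 961 (7.39%) without WiDr, and 510 (3.85%) and 458 (3.46%) without LS123 and HCT 116. With at least 1 CPM required in every library, 622 of 9514 were higher (6.54%) and 659 lower (6.93%). Shares higher and lower were 5.59% and 6.8% without LoVo, 6.05% and 6.09% without COLO-201, and 5.07% and 5.35% without LS1034. They were 4.45% and 4.76% without SNU-C1, 7.2% and 8.28% without HT-29, and 3.96% and 4.21% without LS513. Without HCT 116 they were 5.45% and 5.59%, and without SW480 5.24% and 5.82%. Counts of list members under these settings stand beside these shares. DESeq2's Wald test called 167 higher (1.32%) and 159 lower (1.26%) at an adjusted p under 0.05. At an unadjusted p under 0.05 it had 912 (7.2%) and 954 (7.54%). The groups did not overlap in CPM for 121 genes on the higher side (0.956%) and 139 on the lower side (1.1%). With HT-29 and WiDr left out, 4 libraries against 4, edgeR called 24 genes higher (0.187%) and 17 lower (0.133%) of 12821; 1037 (8.09%) and 1085 (8.46%) were at an unadjusted p under 0.05. Leaving out HT-29 alone gave 8 higher and 8 lower, and leaving out WiDr alone 12 higher and 3 lower; with both out and LS123 and HCT 116 summed to 1 library, 4 and 4 were called. Since the libraries were grouped by a value measured in them, these tests say which other genes went with the score and not what any treatment did. In bulk RNA, fewer cells with a transcript and less of it per cell cannot be told apart.

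The genes with the largest log2 differences among those without overlap included regulators and structural parts of the absorptive cell. Because no gene passed the threshold, the 12 largest differences in each direction were taken, after the values were seen, among genes without overlap, at an unadjusted p under 0.05 and averaging 10 CPM or more in the group where they were higher; 98 genes on the higher and 108 on the lower side met this. On the higher side these were IL33, FABP1, CDX1, C15orf48, NRCAM, MYO1A, GPA33, ATP10B, FRMD3, MYO7B, HEPH and BCL2L14. IL33 stood at 1459.5 CPM in LS513, 67.8 in SNU-C1, 239 in LS1034, 235 in LoVo and 11.4 in HT-29, against 0.93 in WiDr, 0 in COLO-201, 0.0299 in SW480, 0 in LS123 and 0 in HCT 116. IL33 encodes an alarmin cytokine of barrier epithelia, and its lowest high-score level, in HT-29, was above the WiDr level while the other 4 low-score libraries held 1 count in all. ATP10B stood at 437 CPM in LS513, 179.7 in SNU-C1, 175 in LS1034, 123 in LoVo and 32.9 in HT-29, against 15.7 in WiDr, 0.0288 in COLO-201, 0 in SW480, 0.344 in LS123 and 0 in HCT 116. ATP10B, a phospholipid flippase, was carried by all high-score libraries, and WiDr stood close below HT-29 and far above the remaining low-score libraries. HEPH, the iron oxidase that lets absorbed iron leave the enterocyte, had the same arrangement with 62.8 to 234 against 0 to 17.4 CPM. BCL2L14, a BCL2 family member, ranged over 2.75 to 35.1 against 0.121 to 1.39 CPM, and NRCAM, a neuronal cell adhesion molecule, over 0.584 to 153 against 0 to 0.465 CPM, with the LS1034 level (0.584 CPM) little above that of WiDr (0.465 CPM). C15orf48, a small mitochondrial protein, had 0.383 to 183 against 0.0299 to 0.349 CPM, and its HT-29 and WiDr levels were nearly the same. FRMD3, a FERM-domain protein, had 2.71 to 149 against 0 to 2.21 CPM.

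On the lower side the 12 genes were CHST11, AKAP12, ISYNA1, SYTL3, IGFBP2, MT2A, PRAF2, S100A2, ZBTB46, CUTC, CTC1 and RECQL4, and several of them were highest in LS123 and HCT 116. AKAP12 stood at 8.72 CPM in LS513, 0.0908 in SNU-C1, 4.99 in LS1034, 3.1 in LoVo and 4.35 in HT-29, against 15.7 in WiDr, 33.4 in COLO-201, 70.2 in SW480, 2118 in LS123 and 1169.5 in HCT 116. AKAP12 is a scaffold for protein kinase A, and every library outside LS123 and HCT 116 had at most 70.2 CPM. CHST11 stood at 0 CPM in LS513, 0 in SNU-C1, 0.0876 in LS1034, 0.534 in LoVo and 0.661 in HT-29, against 0.969 in WiDr, 339 in COLO-201, 125 in SW480, 9.21 in LS123 and 6.39 in HCT 116. CHST11, a chondroitin sulfotransferase, was high in COLO-201 and SW480 instead, and WiDr was close to HT-29. IGFBP2 stood at 0.283 CPM in LS513, 1.36 in SNU-C1, 1.31 in LS1034, 0.882 in LoVo and 11.7 in HT-29, against 42.9 in WiDr, 60.8 in COLO-201, 51 in SW480, 155 in LS123 and 86.1 in HCT 116. For IGFBP2, which binds insulin-like growth factors, all low-score libraries lay above all high-score ones, with HT-29 and WiDr the nearest to each other. The difference of AKAP12 was -7.20 ± 1.67 (SE, edgeR, adjusted p = 0.268) in log2, that of CHST11 -8.53 ± 1.95 (SE, edgeR, adjusted p = 0.268) and that of IGFBP2 -4.61 ± 0.98 (SE, edgeR, adjusted p = 0.268). MT2A, a metallothionein whose reads may be shared with its near-identical relatives and is therefore uncertain, ranged over 1.45 to 58 against 77.8 to 1292 CPM. ISYNA1, which makes inositol phosphate, had 0.484 to 7.76 against 13.7 to 212 CPM, and SYTL3, a vesicle-docking protein, 0.905 to 1.64 against 1.94 to 108 CPM, with LS123 and HCT 116 the highest in both. RECQL4, a DNA helicase, ranged over 12.3 to 42.3 against 52.7 to 224 CPM and CTC1, of the telomere-capping CST complex, over 7.83 to 10.7 against 12.4 to 96.3 CPM. The log2 differences of PRAF2, S100A2, ZBTB46 and CUTC were -2.42, -2.24, -1.90 and -1.89.

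**Figure D2:**
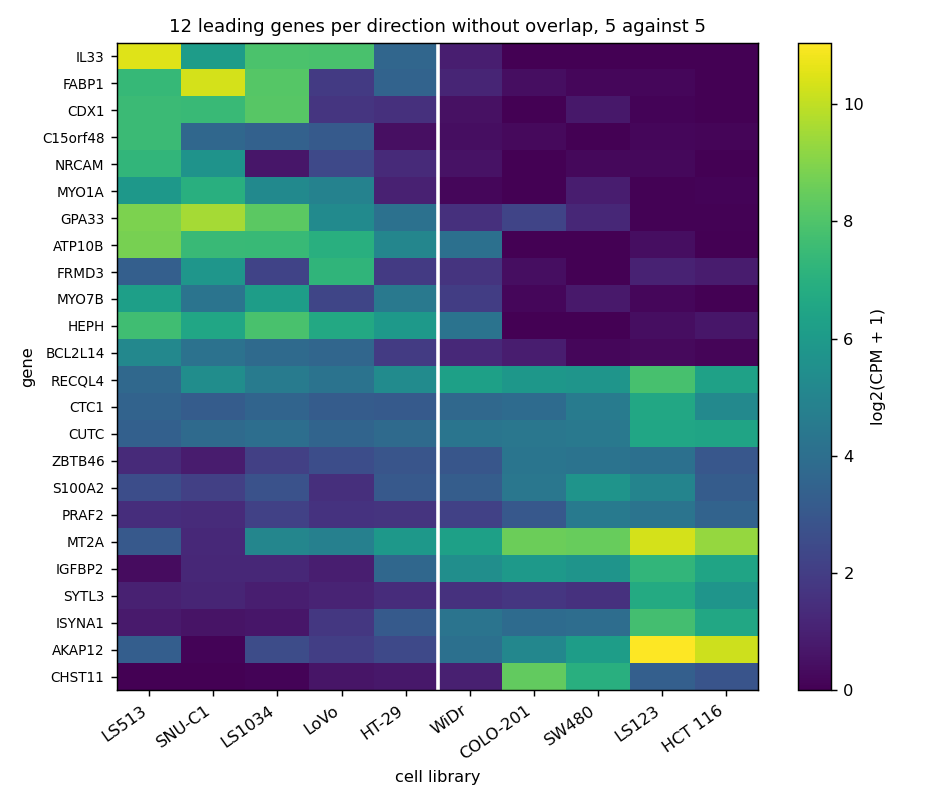
Level of the 12 leading genes per direction in every cell library, as log2(CPM + 1), with libraries ordered by falling score and the white line between the groups. HT-29 and WiDr, on either side of the line, resemble each other, and AKAP12, ISYNA1, SYTL3, CUTC and CTC1 are brightest in LS123 and HCT 116.

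Intestinal transcription factors at an unadjusted p under 0.05 were all on the higher side in the high-score libraries. Of 29 measured, 21 passed the filter on low counts; 8 of these (CDX1, CDX2, HNF4A, HNF4G, KLF4, KLF5, VDR and PPARG) were higher at an unadjusted p under 0.05 and 0 lower, and the median log2 difference over the 21 was 1.24, beside -0.02 over all genes tested. CDX1 stood at 184 CPM in LS513, 177 in SNU-C1, 285 in LS1034, 2.22 in LoVo and 1.91 in HT-29, against 0.426 in WiDr, 0 in COLO-201, 0.659 in SW480, 0.0764 in LS123 and 0 in HCT 116. CDX1, a homeobox factor of the intestine, was thus strong in LS513, SNU-C1 and LS1034 only, and at 2.22 CPM or less elsewhere, although the groups did not overlap (log2 difference 9.18 ± 1.88 SE, edgeR adjusted p = 0.242). CDX2 stood at 87.5 CPM in LS513, 154 in SNU-C1, 132 in LS1034, 43.2 in LoVo and 4.04 in HT-29, against 0.504 in WiDr, 0.173 in COLO-201, 15.7 in SW480, 16.8 in LS123 and 9.39 in HCT 116. CDX2, its partner factor and a standard pathology marker of colon origin, overlapped: HT-29 was below SW480, LS123 and HCT 116 (log2 difference 3.40 ± 1.21 SE, edgeR adjusted p = 0.326). HNF4A, the nuclear receptor of endodermal tissues, ranged over 40.4 to 144 against 3.78 to 68 CPM, and its relative HNF4G over 35.4 to 133 against 2.37 to 57.2 CPM, where WiDr (57.2 CPM) lay with the high-score libraries. KLF5, of proliferating crypt cells, had 479.5 to 986 against 46.8 to 666 CPM and KLF4, of mature ones, 13.7 to 71.5 against 3.74 to 28.2 CPM. VDR, the vitamin D receptor, had 34.4 to 119 against 16 to 47.3 CPM. The count of 8 was 5 without SNU-C1, without LS123 or without SW480, 3 without the cecum lines and 2 without LS123 and HCT 116. A member that passed the filter only through the group where it was high had to differ, so the counts and medians of the lists are a description of the members that passed. With at least 1 CPM required in every library, 11 of the factors were tested and 6 were higher, beside 6.54% of all genes so tested.

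Genes of the brush border, the microvillus surface that absorbs nutrients, were mostly on the higher side too. Of 39 measured, 23 passed the filter, with 8 higher and 1 lower at an unadjusted p under 0.05 and a median log2 difference of 1.89; FABP1, MYO1A and MYO7B did not overlap between the groups. FABP1 stood at 169 CPM in LS513, 1289.6 in SNU-C1, 284 in LS1034, 2.65 in LoVo and 10.4 in HT-29, against 1.24 in WiDr, 0.317 in COLO-201, 0.15 in SW480, 0.153 in LS123 and 0.0303 in HCT 116. FABP1, the liver-type fatty acid binding protein of absorptive cells, was highest in SNU-C1, while LoVo, the lowest of its group, stood next to WiDr (log2 difference 9.90 ± 1.91 SE, edgeR adjusted p = 0.242). MYO1A stood at 58.3 CPM in LS513, 125 in SNU-C1, 36.9 in LS1034, 28.6 in LoVo and 1.01 in HT-29, against 0.155 in WiDr, 0 in COLO-201, 0.868 in SW480, 0.0382 in LS123 and 0.0908 in HCT 116. MYO1A, the motor that ties the microvillus core to its membrane, was high in LS513, SNU-C1, LS1034 and LoVo, with HT-29 near SW480 (log2 difference 7.82 ± 1.5 SE, edgeR adjusted p = 0.242). MYO7B, the motor of the links between microvillus tips, ranged over 4.01 to 73.8 against 0 to 2.98 CPM and CDHR2, a cadherin of those links, over 0.104 to 25.2 against 0.0387 to 2.37 CPM, high only in SNU-C1 and LS1034. PLS1, the microvillus actin bundler plastin 1, had 284 to 607 against 129 to 374 CPM, the peptidase DPP4 8.2 to 374 against 5.63 to 135 CPM and the glucose transporter SLC5A1 1.02 to 141 against 0.151 to 10.8 CPM. ESPN, the actin bundler espin, was the member on the lower side, with 0.242 to 4.53 against 0.635 to 41.4 CPM. The count of 8 higher members was 5 without SW480, 5 without LS123 and HCT 116, and 4 without the cecum lines. With at least 1 CPM required in every library, 3 members were tested and 2 were higher.

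The 250 bases upstream of the RefSeq transcript start (build GRCh38.p14) were read for the leading genes, since FABP1 and MYO1A are textbook genes of the absorptive cell and stood high in libraries with CDX1 and CDX2, to show whether the letters bound by CDX factors occur there. Of the 24 leading genes, 10 of 12 on the higher and 10 of 12 on the lower side had an entry; CDX1, C15orf48, CTC1 and RECQL4 had none. The CDX letters searched were TTTATNG and, on the other strand, CNATAAA, and the TATA box letters TATAAA and TTTATA, which can overlap a CDX match. The windows of 3 genes are printed 5′ to 3′ in the sense of the gene, FABP1 (chr2:88128063-88128312, minus strand), MYO1A (chr12:57051199-57051448, minus strand) and, from the lower side, MT2A (chr16:56608334-56608583, plus strand), with matches to either motif in capitals.
FABP1: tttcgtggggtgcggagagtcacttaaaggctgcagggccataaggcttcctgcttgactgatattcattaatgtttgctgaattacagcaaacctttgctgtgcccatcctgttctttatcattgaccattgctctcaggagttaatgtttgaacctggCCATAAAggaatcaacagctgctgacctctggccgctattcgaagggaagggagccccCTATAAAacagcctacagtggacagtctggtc
MYO1A: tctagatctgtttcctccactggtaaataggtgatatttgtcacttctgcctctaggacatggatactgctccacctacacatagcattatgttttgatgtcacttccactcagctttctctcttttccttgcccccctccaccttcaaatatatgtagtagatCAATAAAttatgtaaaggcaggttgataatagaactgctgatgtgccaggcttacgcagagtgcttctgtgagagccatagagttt
MT2A: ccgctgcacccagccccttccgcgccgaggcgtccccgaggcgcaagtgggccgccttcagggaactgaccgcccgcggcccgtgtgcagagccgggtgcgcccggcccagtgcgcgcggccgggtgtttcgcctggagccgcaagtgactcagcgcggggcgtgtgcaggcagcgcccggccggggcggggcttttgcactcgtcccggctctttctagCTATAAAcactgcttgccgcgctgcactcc
FABP1 held CDX letters starting 90 and 32 bases upstream, the latter overlapping TATA letters at 31; MYO1A held them at 86; and MT2A at 30, overlapping TATA letters at 29. CDX letters were found in 2 of the 10 higher genes (FABP1 and MYO1A) and in 2 of the 10 lower genes (IGFBP2, at 242, and MT2A), beside 9.29% of all 27305 promoters of that length and 5.77% of those of the genes tested. A match is a description of the letters and no site.

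Surface glycoproteins of colon epithelium, other than the scoring genes, had a positive log2 difference in 22 of 23 members tested, and MUC4, a large membrane mucin, one of -0.28. Of 29 measured, 23 passed the filter, with 6 higher and 0 lower at an unadjusted p under 0.05 and a median log2 difference of 2.04; GPA33, MUC13, TSPAN8 and GPR35 did not overlap between the groups. GPA33 stood at 461 CPM in LS513, 745 in SNU-C1, 303 in LS1034, 37.6 in LoVo and 16.3 in HT-29, against 1.9 in WiDr, 3.84 in COLO-201, 1.38 in SW480, 0.0382 in LS123 and 0.0606 in HCT 116. GPA33, the A33 antigen of intestinal cells, was lower in HT-29 and LoVo than in the other high-score libraries and at most 3.84 CPM in the low-score ones (log2 difference 7.78 ± 1.56 SE, edgeR adjusted p = 0.242). GUCY2C stood at 82.7 CPM in LS513, 124 in SNU-C1, 342 in LS1034, 7.8 in LoVo and 0.383 in HT-29, against 0.387 in WiDr, 0.375 in COLO-201, 0.479 in SW480, 0.306 in LS123 and 0.151 in HCT 116. GUCY2C, the receptor of guanylin, was present in LS513, SNU-C1, LS1034 and LoVo and as low in HT-29 as in the low-score libraries (log2 difference 8.37 ± 1.53 SE, edgeR adjusted p = 0.242). The transmembrane mucin MUC13 ranged over 67.3 to 507 against 0.121 to 62.1 CPM and FUT2, which builds blood-group sugars on mucus, over 2.54 to 50.1 against 1.23 to 10.2 CPM. TSPAN8, a tetraspanin of colon cancers, had 1153 to 1982 against 0.153 to 746 CPM, WiDr being the highest of the low-score libraries, and missed an unadjusted p of 0.05. The count of 6 was 10 without COLO-201, 11 without WiDr and 3 without the cecum lines, and DESeq2 gave 11. Over all genes tested, the share on the higher side moved too. It was 5.88% as reported, 6.05% without COLO-201, 7.88% without WiDr, 3.02% without the cecum lines and 7.2% by DESeq2. With at least 1 CPM required in every library, 5 members were tested and 1 was higher.

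Secretory (goblet) products, summed over the list, were 1378 to 8105 CPM in the high-score libraries; in the low-score ones they were 5409 CPM in WiDr and 1652 in COLO-201, above LS1034 (1378), and 174 in SW480, 48.8 in LS123 and 59.4 in HCT 116. These sums include LYZ, which stood at 2728 CPM in HT-29. Its level in COLO-201, given above, exceeds the gap between the sums of COLO-201 and LS1034. Of 28 measured, 21 passed the filter, with 3 higher (SPINK4, REG4 and SYTL2) and 0 lower at an unadjusted p under 0.05 and a median log2 difference of 2.03, and 0 were without overlap. REG4 stood at 189 CPM in LS513, 10.1 in SNU-C1, 0.0584 in LS1034, 1292 in LoVo and 92.5 in HT-29, against 34.8 in WiDr, 0.0865 in COLO-201, 0 in SW480, 0.191 in LS123 and 0.242 in HCT 116. REG4, a secreted lectin, was highest in LoVo and close to 0 in LS1034. SPINK4, a goblet-cell protease inhibitor, had 349.7 CPM in LS513 and 132 in SNU-C1 but 0 in LS1034. SYTL2, of secretory granule docking, ranged over 24.7 to 262 against 0.419 to 52 CPM. The count of 3 was 12 of 21 without WiDr and 9 of 19 without HT-29 and WiDr. It was 2 without the cecum lines, and 1 without LS513, without HCT 116 or without LS123. With at least 1 CPM required in every library, 2 members were tested and 1 was higher. SPINK1, a trypsin inhibitor, which passed with HT-29 and WiDr left out, stood at 142 CPM in HT-29 and 306 CPM in WiDr.

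Among cell-cell junction genes the differences were smaller, and the epithelial splicing regulators ESRP1 and ESRP2, of the same list, had log2 differences of -0.06 and 0.09 (unadjusted edgeR p = 0.895 and 0.825). All 37 measured passed the filter; 7 were higher (CLDN3, CLDN7, CLDN15, OCLN, MARVELD2, DSC2 and PKP2) and 0 lower at an unadjusted p under 0.05, with a median log2 difference of 0.63. CLDN7, a tight-junction claudin, ranged over 269 to 888 CPM (median 424) against 173 to 305 CPM (median 249), a difference of 1.07 ± 0.34 (SE, edgeR, adjusted p = 0.308) in log2. CLDN15, a claudin that forms sodium pores, was the member without overlap, at 3.62 to 22.3 against 1.99 to 2.93 CPM, with 22.3 CPM in SNU-C1 apart from the rest. OCLN, occludin, had 56.4 to 479 against 23.4 to 85.1 CPM and the desmosomal plakophilin PKP2 110.2 to 470.5 against 38.5 to 202 CPM. CLDN2, a leaky claudin called with HT-29 and WiDr left out, stood at 106 CPM in HT-29 and 128 CPM in WiDr and at most 0.808 CPM in the other 4 low-score libraries. The count of 7 was 4 without LS513, 11 without WiDr or without HT-29 and WiDr, 1 without the cecum lines and 2 without LS123 and HCT 116.

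Genes of the mesenchymal state, in which epithelial cells lose their contacts and turn on a motile programme, were mostly on the lower side in the high-score libraries, but they were high in only some of the low-score ones. Summed over the list, the ranges overlapped, at 827 to 4169 CPM in the high-score and 1402 to 3713 CPM in the low-score libraries. The highest sum was that of LS1034, a high-score library (4169 CPM), followed by LS123 (3713 CPM). Of 34 measured, 27 passed the filter, with 10 lower (among them VIM, ZEB1, LOXL2, AXL, CAV1, ITGA5, TNC, CALD1 and MYL9) and 1 higher (TGFBR2) at an unadjusted p under 0.05, a median log2 difference of -2.21, and 0 without overlap. ZEB1 stood at 0.404 CPM in LS513, 0 in SNU-C1, 0.525 in LS1034, 0.615 in LoVo and 0.209 in HT-29, against 0.387 in WiDr, 1.67 in COLO-201, 9.04 in SW480, 5.69 in LS123 and 7.02 in HCT 116. ZEB1, a repressor of epithelial genes, was high in SW480, LS123 and HCT 116, and WiDr was within the high-score range (log2 difference -3.68 ± 1.11 SE, edgeR adjusted p = 0.3). AXL stood at 0.121 CPM in LS513, 0.394 in SNU-C1, 3.24 in LS1034, 2.65 in LoVo and 1.36 in HT-29, against 2.52 in WiDr, 9.98 in COLO-201, 54.1 in SW480, 152 in LS123 and 85.7 in HCT 116. AXL, a receptor tyrosine kinase, had its highest levels in the same 3 libraries (log2 difference -5.22 ± 1.19 SE, edgeR adjusted p = 0.268). VIM stood at 0.605 CPM in LS513, 0 in SNU-C1, 0.292 in LS1034, 0.534 in LoVo and 0.905 in HT-29, against 0.581 in WiDr, 0.0577 in COLO-201, 102 in SW480, 2.94 in LS123 and 3.21 in HCT 116. VIM, the mesenchymal intermediate filament vimentin, was abundant in SW480 alone, and its level in COLO-201 was lower than in 4 of the 5 high-score libraries (log2 difference -5.43 ± 1.88 SE, edgeR adjusted p = 0.32). CALD1, an actin regulator, had 81.7 CPM in SW480, 77.3 in LS123 and 123 in HCT 116 and at most 4.61 elsewhere. TNC, tenascin, stood at 405 CPM in COLO-201 and at most 7.79 CPM in the others. TGFBR2, the receptor of TGF-beta, ranged over 165 to 543 against 54.4 to 284 CPM. The count of 10 lower was 7 without the cecum lines. With at least 1 CPM required in every library, 4 members were tested, 1 was higher and 1 lower, and the median was -0.02.

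Among the galectins, sugar-binding proteins other than the scoring gene LGALS4, 7 of 12 measured passed the filter, with 1 higher and 1 lower at an unadjusted p under 0.05 and a median log2 difference of 0.29. LGALS1 stood at 0.888 CPM in LS513, 2.18 in SNU-C1, 34.1 in LS1034, 0.134 in LoVo and 12.8 in HT-29, against 8.64 in WiDr, 843 in COLO-201, 256 in SW480, 586 in LS123 and 215 in HCT 116. LGALS1, galectin-1, was high in 4 low-score libraries, and WiDr was below HT-29 and LS1034. LGALS3 stood at 1725 CPM in LS513, 1194 in SNU-C1, 1702 in LS1034, 1209.9 in LoVo and 217 in HT-29, against 117 in WiDr, 694 in COLO-201, 286 in SW480, 203 in LS123 and 201 in HCT 116. LGALS3, galectin-3, was highest in LS513, LS1034, LoVo and SNU-C1, while HT-29 lay inside the low-score range. The log2 differences were -5.25 ± 1.51 (SE, edgeR, adjusted p = 0.298) for LGALS1 and 2.04 ± 0.62 (SE, edgeR, adjusted p = 0.3) for LGALS3. Keratins, the epithelial intermediate filaments, showed 0 higher and 1 lower of 15 tested (6.67%, beside 6.36% over all genes tested), with a median of -0.23. Without LS123 and HCT 116, 3 were lower. The 1 lower with all libraries was KRT6B, which stood at 315 CPM in COLO-201 and at most 3.62 CPM elsewhere and may share reads with KRT6A. KRT20, the keratin of mature colon cells, had 8.31 to 1458 against 0.0599 to 370.4 CPM, with WiDr at 370.4 and LoVo at 8.31 CPM. Of the enteroendocrine markers, 4 of 16 passed the filter and 0 were at an unadjusted p under 0.05.

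DNA replication and mitosis genes were lower in the high-score libraries in larger number than those of any other list: of 36 measured and tested, 23 were lower and 0 higher at an unadjusted p under 0.05, 7 were without overlap, and the median log2 difference was -0.92. None of the 36 had a positive difference. MCM4 stood at 136 CPM in LS513, 218 in SNU-C1, 204 in LS1034, 199 in LoVo and 230.1 in HT-29, against 438 in WiDr, 567 in COLO-201, 557 in SW480, 582 in LS123 and 499.8 in HCT 116. MCM4, a subunit of the helicase that opens DNA at replication origins, had the smallest p of the whole fit (log2 difference -1.38 ± 0.19 SE, edgeR adjusted p = 0.228), and WiDr, the lowest of its group, lay between HT-29 and the other low-score libraries. MCM6 stood at 56.7 CPM in LS513, 86.2 in SNU-C1, 106 in LS1034, 95 in LoVo and 84.7 in HT-29, against 120.4 in WiDr, 238 in COLO-201, 220.1 in SW480, 227 in LS123 and 219.8 in HCT 116. MCM6, of the same helicase, was only slightly higher in WiDr than in LS1034 and far higher in the other 4 low-score libraries (log2 difference -1.22 ± 0.24 SE, edgeR adjusted p = 0.242). MCM5 ranged over 38.8 to 75.8 against 94.5 to 316 CPM and MCM7 over 193 to 339 against 409 to 1008 CPM, also without overlap. CDC6, which loads the helicase, had 45.3 to 67.4 against 92 to 221 CPM, the cyclin CCNA2 45.6 to 191 against 205 to 333 CPM and TYMS, the thymidylate synthase, 29.2 to 86.2 against 91.9 to 332 CPM. Other members overlapped: MKI67, the proliferation marker, ranged over 99.2 to 289 against 229 to 320.3 CPM with HT-29 at 289 CPM, and PCNA, the replication clamp, over 139 to 362 against 277 to 704 CPM. Summed over the 36 genes, the list made up 2822 CPM in LS513, 4222 in SNU-C1, 4813 in LS1034, 4086 in LoVo and 5817 in HT-29, against 6094 in WiDr, 9199 in COLO-201, 9171 in SW480, 9494 in LS123 and 9759 in HCT 116. HT-29 and WiDr stood between the other high-score and the other low-score libraries. The count of 23 was 18 to 25 with each library left out in turn, 27 without HT-29 and WiDr, 17 without LS123 and HCT 116, and 16 without the cecum lines.

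**Figure D3:**
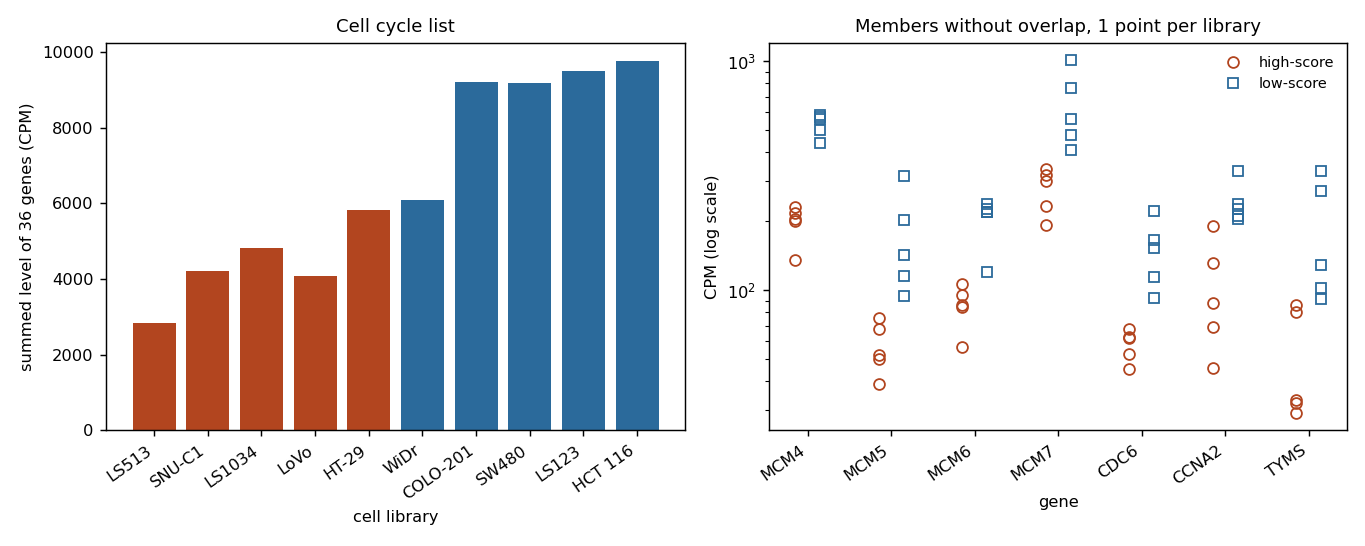
Left, summed level of the 36 cell cycle genes in each cell library, in CPM, by falling score, high-score in orange and low-score in blue. Right, the 7 members whose groups do not overlap, in CPM on a log scale, with 1 point per library. The sum is 2822 to 5817 CPM in the high-score and 6094 to 9759 CPM in the low-score libraries.

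Targets and feedback genes of the MAPK growth signal also had more members on the lower than on the higher side. Of 22 measured and tested, 5 were lower (DUSP6, SPRY4, ETV1, EGR1 and FOSL1) and 1 higher (HBEGF) at an unadjusted p under 0.05, with a median log2 difference of -0.73. SPRY4, a feedback inhibitor of receptor signalling, was without overlap at 23.8 to 41.6 CPM (median 35) against 52.9 to 75.3 CPM (median 61.4), a log2 difference of -0.77 ± 0.24 (SE, edgeR, adjusted p = 0.305). FOSL1, an AP-1 subunit, ranged over 13.1 to 36.3 against 26.5 to 179.6 CPM, and ETV1, an ETS factor, over 2.06 to 19.7 against 2.8 to 122 CPM with HT-29 (19.7) beside WiDr (23.4) and COLO-201 low. DUSP6, the phosphatase that switches ERK off, had 102 to 179 against 115 to 592 CPM. HBEGF, an EGFR ligand, had 13.7 to 75.5 against 4.85 to 27.7 CPM. The count of 5 was 3 without SNU-C1 or without the cecum lines, and 8 by DESeq2. Of the 18 YAP and TEAD targets tested, 2 were higher (11.1%) and 2 lower (11.1%), with 4 lower without COLO-201 or without HT-29. Of 25 Wnt targets and stem cell genes, 2 (PTPRO and RGMB, 8.0%) were higher and 0 lower. The shares over all genes tested were 5.88% higher and 6.36% lower. The medians of the 2 lists were -0.54 and 0.22.

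Metabolic and interferon lists had at most 5 members in a direction at an unadjusted p under 0.05, and several counts moved when single lines were left out. Of 24 genes of xenobiotic metabolism and transport tested, of 33 measured, 4 were higher and 1 lower at an unadjusted p under 0.05, with a median log2 difference of 1.08. The count of 4 was 11 without WiDr, 8 without HT-29 and WiDr, and 3 without the cecum lines. With at least 1 CPM required in every library, 2 of 7 were higher. CYP2S1, a cytochrome P450, was without overlap at 89.8 to 134 against 17.6 to 75.6 CPM. CYP2J2, another P450, ranged over 0.975 to 145 against 0.387 to 6.92 CPM, with HT-29 at 0.975 CPM. Of 30 interferon and MHC class I genes, 5 were higher and 0 lower, with a median of 0.32. B2M, the light chain of MHC class I, had 8709 CPM in LS1034 and 4983 in LS513 but 185 in LoVo, the lowest of all 10 libraries. Without LS1034, without LS513 or without both (the cecum lines), 0 of the 30 were higher, and without the cecum lines the median was -0.11. The count was 8 without HT-29 and WiDr, 3 without COLO-201 or without LS123, 2 without SW480 and 1 without HCT 116. Of 26 glycolysis and hypoxia genes, 3 were lower (ENO1, SLC16A3 and ADM) and 1 higher, VEGFA, the vascular growth factor, which did not overlap (85 to 155 against 22 to 77.5 CPM), log2 difference 1.42 ± 0.32 SE, edgeR adjusted p = 0.268. The 3 lower became 8 without HT-29 or without HT-29 and WiDr. They became 1 without LoVo, LS1034, SNU-C1, LS513, HCT 116 or the cecum lines, and 0 without LS123. The share of all genes on the lower side moved too. It was 8.28% without HT-29, 4.21% without LS513 and 3.49% without the cecum lines. Of 23 cholesterol synthesis genes, 1, MSMO1, was higher (4.35%, beside 5.88% over all genes tested), and the count was 3 without LS1034. The medians of the glycolysis and cholesterol lists were -0.26 and 0.17. Of the leukocyte markers 0 of 3 tested, and of the fibroblast and endothelial markers 0 higher and 1 lower of 4, were at an unadjusted p under 0.05; the 1 was COL1A1, at most 9.55 CPM.

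**Figure D4:**
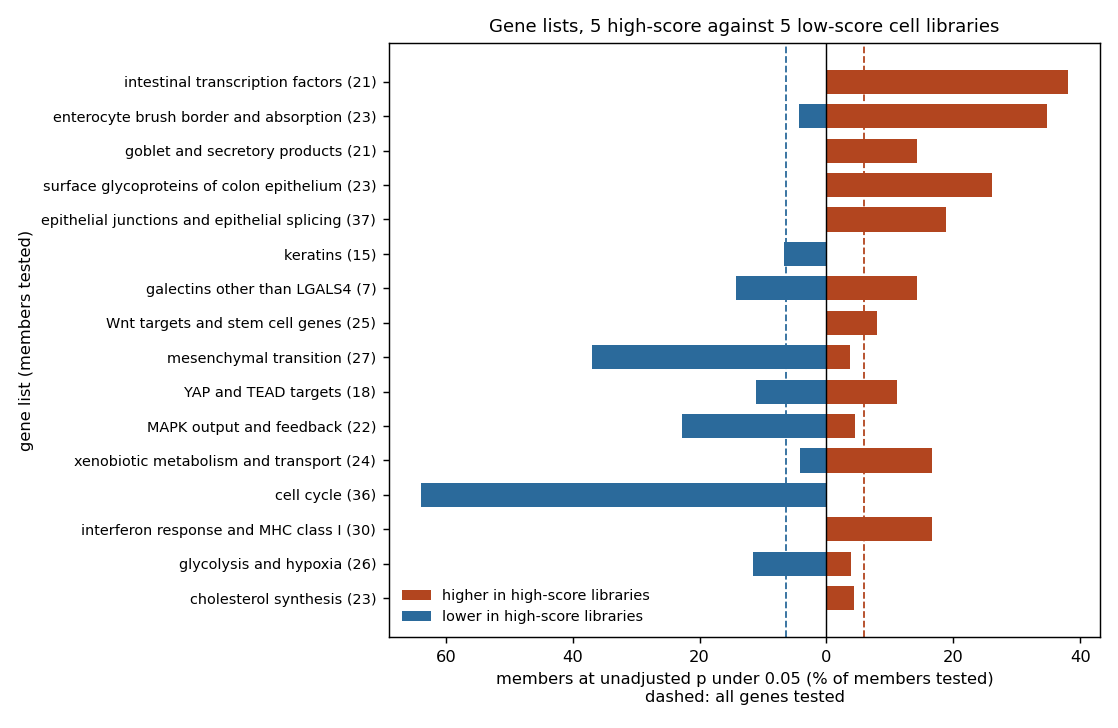
Share of each gene list's tested members at an unadjusted p under 0.05, in percent, higher (right, orange) or lower (left, blue) in the 5 high-score than in the 5 low-score cell libraries, for lists with at least 7 members tested. Dashed lines give the shares over all genes tested, 5.88% higher and 6.36% lower; the cell cycle list reaches 63.9% on the lower side and the intestinal transcription factors 38.1% on the higher side.

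The label of differentiated against undifferentiated lines was checked on 8 genes that the score did not use, and 0 of the 8 were without overlap. That is near the share over all genes tested, 0.956% higher and 1.1% lower. The log2 differences were 1.08 for VIL1, 1.37 for CDH1, 0.98 for EPCAM, 2.82 for KRT20, 3.4 for CDX2 and 1.51 for HNF4A. VIM and ZEB1 had negative ones. Each of the 8 kept its direction under every setting run, and CDX2, HNF4A, VIM and ZEB1 were at an unadjusted edgeR p under 0.05. VIL1, the microvillus protein villin, stood at 271 CPM in COLO-201 and 267 CPM in SW480, above LS513 (241 CPM) and LoVo (16.4 CPM), and near 0 in LS123 and HCT 116. CDH1, the E-cadherin of epithelial contacts, ranged over 407 to 949.7 against 45.5 to 589 CPM, where COLO-201 (548) and WiDr (589) were above LoVo (407). EPCAM, the general epithelial adhesion molecule, had 1666 to 5378 against 648 to 2914 CPM, so every library was epithelial by this marker. KRT20, CDX2, HNF4A, VIM and ZEB1 overlapped as described. The groups are named by their score here and not as differentiated or undifferentiated.

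With HT-29 and WiDr left out, 41 genes passed the threshold. In 27 of the 41, at least 1 of HT-29 and WiDr lay between the remaining groups; in 6 both lay in or beyond the high-score range, in 8 both in or beyond the low-score range, and in 0 were they on opposite sides. Of the 41, 29 had an unadjusted p under 0.05 with all 10 libraries, and 16 did not overlap there. On the higher side were IL33, ATP10B, HEPH, BCL2L14, GUCY2C, SPINK1, CLDN2, NR1I2, IHH, TRIM31, COL17A1, DDC, ATP8A1, CXCL3, NOSTRIN, CKMT1A, RHOU, PAG1, ETS2, SH3D19, TRIM2, PLPP6, ETHE1 and SLC35A3; CKMT1A is uncertain, since CKMT1B is a near-identical copy. On the lower side were MCM4, MCM10, RPA1, BIRC5, AURKB, SPAG5, STMN1, SLC16A3, TNS2, IGFBP6, IGFBP2, COL18A1, CALHM2, SMARCA1, CMTM3, CHST15 and NTSR1. DDC, the decarboxylase that makes dopamine and serotonin, had 80.8 CPM in LS513, 169 in SNU-C1, 68.6 in LS1034, 28 in LoVo and 39.5 in HT-29, against 17.2 in WiDr, 0.548 in COLO-201, 1.08 in SW480, 0.344 in LS123 and 0.454 in HCT 116. LoVo was the lowest of the high-score libraries, next to WiDr, and WiDr stood far above the other 4 low-score libraries (log2 difference 7.21 ± 0.73 SE, adjusted p = 0.0139, edgeR, 4 against 4). IHH, the hedgehog ligand of mature colon cells, had 8.28 to 36.2 against 0 to 7.4 CPM over all 10 libraries, with WiDr at 7.4 and the other 4 low-score libraries at most 0.0764 CPM. RHOU, a small GTPase, had 35.2 to 110.2 against 2.37 to 23.6 CPM (log2 difference 3.62 ± 0.56 SE, adjusted p = 0.0419). NR1I2, the xenobiotic receptor PXR, was at 1.74 to 27.4 CPM in 4 high-score libraries and at 1 count in all over 4 low-score ones (adjusted p = 0.036), so no fold is given.

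**Figure D5:**
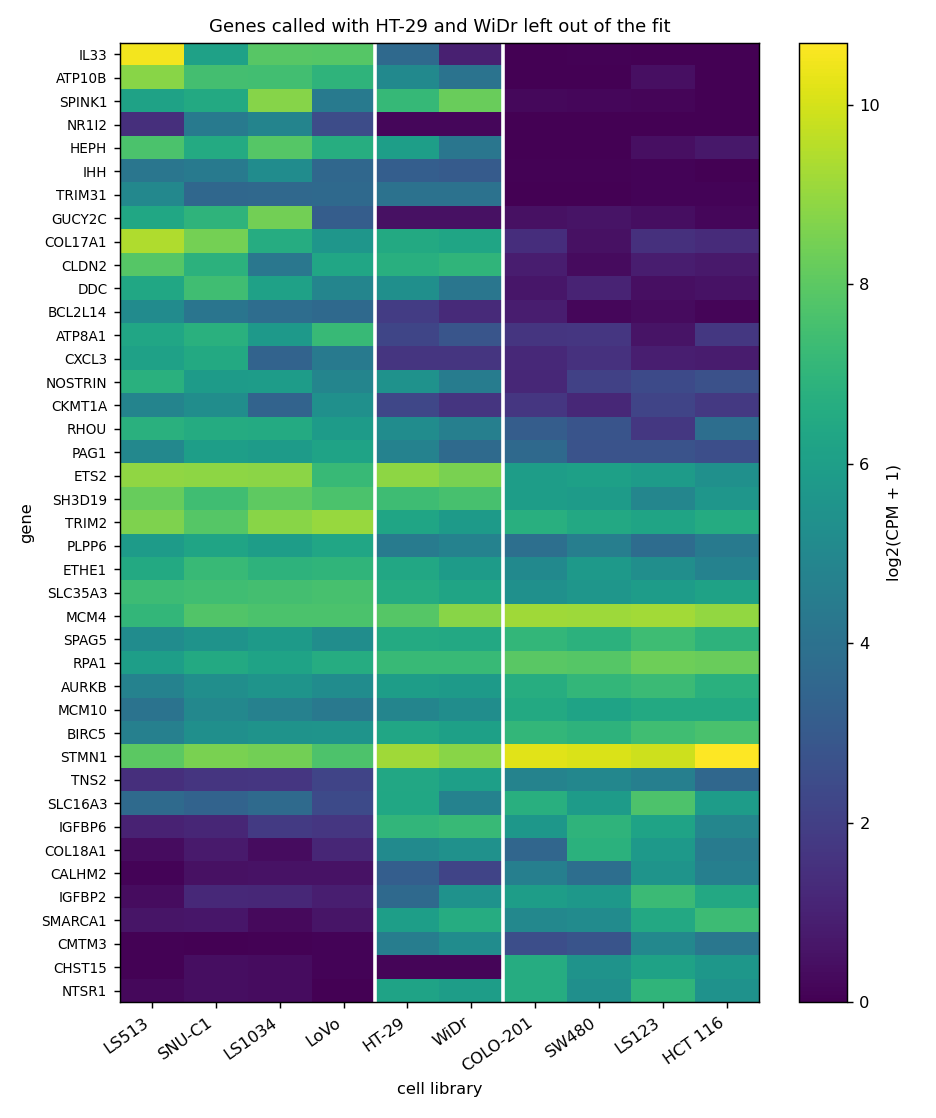
Level of the 41 genes called with HT-29 and WiDr left out, as log2(CPM + 1) in every cell library; the white lines set off HT-29 and WiDr, which took no part in the fit. Genes run from the largest positive to the largest negative difference. In 27 of 41 at least 1 of HT-29 and WiDr lies between the outer groups.

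The genes on the lower side of that comparison joined replication and mitosis genes to genes almost silent in 4 high-score lines. RPA1 stood at 63.4 CPM in LS513, 90.0 in SNU-C1, 72.9 in LS1034, 95.9 in LoVo and 145 in HT-29, against 147 in WiDr, 244 in COLO-201, 233 in SW480, 317 in LS123 and 302 in HCT 116. RPA1, which coats single-stranded DNA at the replication fork, was without overlap, with HT-29 and WiDr almost equal (log2 difference -1.70 ± 0.23 SE, adjusted p = 0.0331). MCM10, a replication factor, had 15.7 to 31.2 against 37.3 to 89.9 CPM (log2 difference -1.85 ± 0.28 SE, adjusted p = 0.0419), BIRC5, survivin, 24.4 to 79 against 65.9 to 196 CPM (log2 difference -1.98 ± 0.28 SE, adjusted p = 0.0331) and the mitotic kinase AURKB 25.6 to 60.3 against 55.6 to 153 CPM (log2 difference -1.70 ± 0.24 SE, adjusted p = 0.0331). STMN1, which takes microtubules apart, ranged over 209.5 to 577 against 446 to 1652 CPM. NTSR1 stood at 0.161 CPM in LS513, 0.333 in SNU-C1, 0.292 in LS1034, 0 in LoVo and 73.2 in HT-29, against 60.5 in WiDr, 96.4 in COLO-201, 39.3 in SW480, 125 in LS123 and 42.2 in HCT 116. NTSR1, the neurotensin receptor, was at or near 0 CPM in LS513, SNU-C1, LS1034 and LoVo and high in the other 6, HT-29 included (log2 difference -8.49 ± 1.03 SE, adjusted p = 0.0227). SMARCA1, a chromatin remodeller, had 63.4 CPM in HT-29, 98.4 in WiDr and at most 0.575 in the other high-score libraries (log2 difference -7.36 ± 0.76 SE, adjusted p = 0.0139). IGFBP6, another binder of insulin-like growth factors, had the same arrangement, with 131 CPM in HT-29. CHST15, a sulfotransferase of chondroitin, went the other way, with 0.104 CPM in HT-29 and 0.116 in WiDr, as low as in the other high-score libraries, and 43.5 to 97.7 CPM in the remaining low-score ones.

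The vesicle libraries of the same lines, which the score did not use, were grouped by the split of their cells. They hold 1.75 to 24.4 M counts, come from another kit and show more genes with at least 10 counts than the cells (12622 to 16160 against 11923 to 13250), and they share their cell lines with the cell libraries. edgeR called 0 of 15884 genes (0.0%) at an adjusted p under 0.05; at an unadjusted p under 0.05, 323 were higher (2.03%) and 336 lower (2.12%), and DESeq2 called 7 (0.0441%) and 11 (0.0693%). The split of the genes at an unadjusted p under 0.05 turned with the scaling, with 249 higher and 456 lower under DESeq2 size factors and 347 and 184 under upper-quartile scaling, so no balance of directions is read from it. Among 12522 genes tested in both, the lists at an unadjusted p under 0.05 shared 66 genes on the higher side, 8.93% of the cells' 739 and 29.9% of the vesicles' 221, and 78 on the lower side, 9.73% of 802 and 24.6% of 317. Of the 41 genes called in cells with HT-29 and WiDr left out, 9 had the same direction in vesicles at an unadjusted p under 0.05. The opposite direction held for 0. GUCY2C had a log2 difference of 8.37 in cells and 0.41 in vesicles (unadjusted edgeR p = 0.67 in vesicles). KLF4 had 1.84 in cells and -0.51 in vesicles (unadjusted edgeR p = 0.521 in vesicles). The vesicle libraries also hold background reads over genes that cells lack. The part of such reads in these vesicle differences was not tested. RHOU ranged over 29.8 to 60.2 against 1.4 to 15.1 CPM in vesicles, without overlap (log2 difference 3.03 ± 0.54 SE, edgeR adjusted p = 0.513), and so did DDC, over 38.9 to 84.3 against 1.77 to 19.5 CPM (log2 difference 2.72 ± 0.58 SE, edgeR adjusted p = 0.685). CDX1 ranged over 2.5 to 288 against 0.65 to 7.81 CPM (log2 difference 5.82 ± 1.12 SE, edgeR adjusted p = 0.674), FABP1 over 1.6 to 761 against 0.526 to 16.6 CPM (log2 difference 5.65 ± 1.37 SE, edgeR adjusted p = 0.971) and LGALS1 over 3.4 to 81 against 14 to 1069 CPM (log2 difference -5.04 ± 1.28 SE, edgeR adjusted p = 0.971), each with overlap. The cell cycle list had 0 of 36 members at an unadjusted p under 0.05 in vesicles. Its median log2 difference there was -0.66, beside -0.05 over all genes tested in vesicles and -0.16 over the 12522 tested in both. Whether any gene's difference between the groups differed between cells and vesicles was tested as an interaction over all 20 libraries: edgeR called 0 of 16895 (0.0%), with 1038 (6.14%) at an unadjusted p under 0.05. With the cell line as a block, 1 was called, ATP10B (adjusted p = 0.0444), whose vesicle levels were 3.28 to 76.1 against 0.701 to 65 CPM.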

How the data were processed

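Total RNA of 10 colorectal cancer cell lines and of their extracellular vesicles was sequenced, 1 library each. The deposited values are raw counts per protein-coding gene symbol (17113 genes); the authors' normalization, if any, is not in them. STAR, featureCounts and hg19 are named per the submitters' processing notes; versions, annotation and the strand setting are not given in the sources used here, so reads of overlapping, antisense or near-identical genes cannot be told apart. Cell libraries came from a stranded, rRNA-depleting kit, per the labels' protocols.

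Levels are CPM by column total. Groups were tested with edgeR 4.0.16 (R 4.3.3; robust quasi-likelihood, TMM scaling, filterByExpr with a minimum count of 10, Benjamini-Hochberg over all genes, threshold 0.05), checked on simulated data, with DESeq2 1.42.0 as an alternative. On the simulated data, edgeR called 42% of genes given a log2 difference of 2 in either direction and 81% of those given 4. It made 8 false calls among 12456 genes tested. A gene that differs can thus miss the threshold. The 4 scoring genes stayed in the fit and out of every count. Technical measures had exact permutation tests. Total counts were 24.8 to 37.4 M per cell library. Lists comprised 19 gene sets, described by counts and medians without a set test.

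Genes named were to be the 12 largest differences each way past the threshold without overlap and with at least 10 CPM; it gave 0, hence the rule stated with the results. The 2 members of each list with the smallest p and 8 label-check genes were added; other list members were named after their values were seen. The score's members and the lists were chosen with earlier results of these data known. 1 gene is not reported here.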

Additional observations from a re-analysis of the deposited data

Results flagged for a closer look

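In each group of 5, the library with the highest or lowest log2(CPM + 1) of each named gene was compared with the rest by Dixon's ratio, whose 95% critical value for 5 libraries is 0.71. Chance alone would pass about 1 in 20 groups of unselected genes, and 38 of 208 groups passed it. Many named genes were selected for their difference between the groups. They also include the 41 called with HT-29 and WiDr left out, a fit that favours genes alike within the remaining libraries. Gaps of HT-29 and WiDr in those genes are partly set by that selection, so the 38 are not read against 1 in 20. All genes share the same libraries. In what follows the value is in CPM, set against the range of the other 4 libraries of its group.

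HT-29 stood apart from the other high-score libraries in 14 genes: CALD1 (1.84 against 0.0605 to 0.404), CALHM2 (8.07 against 0.0807 to 0.454), CD4 (3.65 against 0 to 0.38), CMTM3 (21.9 against 0 to 0.0802), COL18A1 (33.9 against 0.282 to 1.23), ETV1 (19.7 against 2.06 to 3.06), IGFBP2 (11.7 against 0.282 to 1.36), IGFBP6 (131 against 1.05 to 2.57), LGALS3 (217 against 1194 to 1725), NTSR1 (73.2 against 0 to 0.333), PLPP6 (20.9 against 56.9 to 78.7), SLC35A3 (93.4 against 158 to 189.8), SMARCA1 (63.4 against 0.204 to 0.575) and TNS2 (84.8 against 1.7 to 3.58). WiDr stood apart from the other low-score libraries in 15 genes: ATP10B (15.7 against 0 to 0.344), CHST15 (0.116 against 43.5 to 97.7), CLDN2 (128 against 0.239 to 0.808), COL17A1 (77.5 against 0.389 to 1.83), DDC (17.2 against 0.344 to 1.08), ETS2 (368 against 39.9 to 66.9), HEPH (17.4 against 0 to 0.606), IHH (7.4 against 0 to 0.0764), IL33 (0.93 against 0 to 0.0299), MCM10 (37.3 against 72 to 89.9), MCM6 (120.4 against 219.8 to 238), NR1I2 (0.155 against 0 to 0.0288), SPINK1 (306 against 0 to 0.173), SPINK4 (1.08 against 0 to 0.12) and TRIM31 (15.4 against 0 to 0.0764). For SPINK1, CLDN2 and TRIM31 the WiDr level was within or beyond the high-score range, and for NTSR1, SMARCA1 and IGFBP6 the HT-29 level was within or beyond the low-score range.

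Single libraries other than these accounted for 5 such gaps in the high-score group, ETS2 in LoVo (145 against 450.3 to 485), KRT81 in LS1034 (1.9 against 0.0908 to 0.267), MCM4 in LS513 (136 against 199 to 230.1), SCG5 in SNU-C1 (6.12 against 0.409 to 0.766), VIL1 in LoVo (16.4 against 224 to 557), and for 4 in the low-score group, KRT6B in COLO-201 (315 against 0.0605 to 3.62), KRT81 in SW480 (15.5 against 0.0303 to 1.18), MYO1A in SW480 (0.868 against 0 to 0.155), RECQL4 in LS123 (224 against 52.7 to 79.8). Total counts, genes detected, mitochondrially encoded share and the share of the 50 most abundant genes gave 0 such gaps.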

How the results depend on the processing

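The 0 genes called in each direction between the 5 high-score and 5 low-score cell libraries stayed 0 under DESeq2 size factors, library size only, upper-quartile scaling, no filter on low counts, at least 1 CPM in every library, LS123 and HCT 116 summed, without those 2 libraries (chosen after seeing the data) and without the cecum lines. DESeq2's Wald test called 167 higher and 159 lower, of which 17 and 20 were list members. Without the libraries on either side of the boundary, HT-29 and WiDr, 24 and 17 were called, with 3 and 4 list members; with LS123 and HCT 116 also summed, a fit chosen after seeing the data, 4 and 4. Leaving out each library in turn gave 0 to 12 higher and 0 to 8 lower, and 0 to 2 and 0 to 1 list members, with calls only without HT-29 (8 and 8, list members 1 and 1) or without WiDr (12 and 3, list members 2 and 1); of these 16 and 15 genes, 15 and 15 were among the 41 called without both. In vesicles, 7 and 11 genes were called by DESeq2's Wald test and 0 under the other settings. No paired analysis was possible because the high-score and low-score cell libraries come from different lines. In the interaction of compartment and score, where a shared number is a shared line, the fit with the line as a block called 1 gene higher in place of 0; leaving out each line in turn gave 0 to 1 higher and 0 to 4 lower. The cause of these changes was not tested. Of 98 named genes, 94 kept their direction under every setting run, and CD14, CD4, NLRC5 and SCG5 each had the other direction under 1; 72 were called under at least 1 setting, 33 of them by DESeq2's Wald test only. The median log2 difference of all genes shifted by less than 0.1 between scalings in cells; in vesicles it was -0.05 as reported, -0.13 under DESeq2 size factors, 0.09 by library size only and 0.13 under upper-quartile scaling, and in the interaction 0.05 as reported and -0.12 by library size only. Differences of genes under about 0.121 CPM in a group are limited by depth.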
